A study of Mus musculus with 9 samples.

Results

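The mitochondrial respiratory chain was followed through 84 nuclear genes across 3 stages of the mouse mid-foregut. Genes were taken by symbol from the array's annotation: complex I and its assembly factors by the prefix Nduf, succinate dehydrogenase by Sdha to Sdhd, complex III by Uqcr, complex IV by the nuclear Cox families and ATP synthase, called complex V, by Atp5. Of 12393 genes with a probe set of their own, 84 matched, 39 in complex I, 4 in complex II, 8 in complex III, 16 in complex IV and 17 in complex V. The filter on low signal kept 81 of them among 8675 tested genes, and Cox6b2, Cox7a1 and Cox8b did not pass it.

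The chain sits in the inner mitochondrial membrane. Complexes I and II feed electrons from NADH and succinate into ubiquinone, complex III hands them to cytochrome c, and complex IV passes them to oxygen, while the proton gradient built by complexes I, III and IV drives ATP synthesis by complex V. Each complex mixes a few catalytic subunits with many small accessory proteins made from nuclear genes, and complex II is also an enzyme of the citric acid cycle. Embryos at early organogenesis are known to lean on glycolysis and to turn increasingly to oxidative phosphorylation as development goes on.

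All tissue came from wild-type embryos, with neural tube and heart cut away and the stretch of gut between the pharyngeal arches and the liver kept, the region in which the lung buds are induced. The 3 groups held embryos of 16-20 somites (embryonic day 8.5), 21-25 somites (day 9.0) and 26-30 somites (day 9.5). Each had 3 biological replicates, each a pool of 5 to 10 mid-foreguts on 1 Affymetrix array, so errors and p-values reflect the spread between pools. From each pool 100 ng of RNA passed through 2 rounds of amplification, and signals are the authors' MAS5 intensities on a linear scale. Differences are on the scale of log2(signal + 26.1), which understates those of dim genes. In whole tissue, fewer cells of a type and less RNA per cell cannot be told apart.

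Array-wide features bear on every value below. A narrow range of signal, with a maximum of 27480 to 32584, set 21-25 somites replicate 1 and replicates 1 and 2 of 26-30 somites apart from the other 6 arrays, whose maximum was 43792 to 61749. The term narrow-range stands for these 3 arrays. The control probe sets of beta-actin gave a 3'/5' ratio that was 20.9 to 22.2 on them and 22.4 to 45.3 on the others. Of 11 markers of foregut endoderm on the array, Foxa1, Foxa2 and Krt18 read 460 to 5459 on every array, whereas Shh read 0.70 to 38.3 and Nkx2-1 7.20 to 98.6. The 11 summed to 10304 to 16990 at 16-20 somites, 8638 to 9500 at 21-25 somites and 9213 to 10425 at 26-30 somites. The 9 tested had a median log2 difference of 0.14 between 26-30 and 16-20 somites, with 4 negative and 5 positive. Of 16 cardiac muscle genes 13 were tested, none was listed at 0, and their summed signal was 3804 to 19767 at 16-20 somites, 6019 to 6391 at 21-25 somites and 2738 to 8041 at 26-30 somites, with the high value on 16-20 somites replicate 2. All 8 primitive erythroid genes on the array were tested, none was listed at 0, and they summed to 37474 to 41517, 18805 to 36951 and 21836 to 60201 at the 3 stages in that order, with the 3 lowest sums on the narrow-range arrays. Of 10 foregut mesenchyme genes on the array 6 were tested, and none was listed at 0. The 10 genes summed to 2877 to 3635 at 16-20 somites, 3879 to 6609 at 21-25 somites and 4954 to 7028 at 26-30 somites, with the 3 highest sums on the narrow-range arrays. All 6 tested read higher on every 26-30 pool than on every 16-20 pool (against 11.2% of tested genes), with a median log2 difference of 0.99. In limma 4 were higher at an unadjusted p under 0.05, against 6.29% of tested genes, and 0 at an adjusted p under 0.05. The 11 liver bud and yolk sac genes summed to 2706 to 42028, 2121 to 9730 and 1887 to 3729. Between 26-30 and 16-20 somites the 7 tested of them had a median log2 difference of -1.03, with 7 negative. The 13 tested cardiac genes had a median of -0.68, with 11 negative and 2 positive. For the 8 primitive erythroid genes it was 0.09, with 3 negative and 5 positive. The part of these differences in the results on the chain was not tested.

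Promoters of 4 genes, from complexes I, III, IV and V, are shown as examples that hold a match to a motif given below. Pearson's r of their signals with the median of the other chain genes over the 9 arrays was 0.85 for Atp5k, 0.90 for Ndufa8, 0.99 for Uqcr11 and 0.98 for Cox6a1. Other genes with a high r had no match, such as Ndufv2 and Cox5b (both 0.97), and the shares over all windows follow. The promoters are RefSeq windows of GRCm38.p6, from 250 bases before to 50 bases after the annotated start, printed from 5′ to 3′ on the strand of the gene. Capitals mark matches to 2 motifs of known regulators of nuclear respiratory genes, searched on both strands: GCGCA, any base and GCGC for NRF1, and CCGGAAG for the ETS factor GABP. Atp5k (chr5:108434350-108434649, minus strand) had a motif of each kind, Ndufa8 (chr2:36049289-36049588, minus strand) that of NRF1, Uqcr11 (chr10:80406772-80407071, minus strand) that of GABP, and Cox6a1 (chr5:115348909-115349208, minus strand) 2 of NRF1 and 1 of GABP.
Atp5k: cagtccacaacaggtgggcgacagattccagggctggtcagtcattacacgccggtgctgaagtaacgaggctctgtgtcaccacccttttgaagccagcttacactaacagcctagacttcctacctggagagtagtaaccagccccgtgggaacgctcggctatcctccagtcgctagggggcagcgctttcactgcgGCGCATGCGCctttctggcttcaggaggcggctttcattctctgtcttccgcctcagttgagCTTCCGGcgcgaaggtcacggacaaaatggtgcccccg
Ndufa8: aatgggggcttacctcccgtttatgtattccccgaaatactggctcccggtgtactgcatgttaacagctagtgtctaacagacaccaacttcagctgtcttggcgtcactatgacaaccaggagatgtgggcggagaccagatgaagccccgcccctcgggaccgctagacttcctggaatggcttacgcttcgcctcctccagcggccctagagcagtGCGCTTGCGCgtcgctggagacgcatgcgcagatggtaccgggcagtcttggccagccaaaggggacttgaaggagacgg
Uqcr11: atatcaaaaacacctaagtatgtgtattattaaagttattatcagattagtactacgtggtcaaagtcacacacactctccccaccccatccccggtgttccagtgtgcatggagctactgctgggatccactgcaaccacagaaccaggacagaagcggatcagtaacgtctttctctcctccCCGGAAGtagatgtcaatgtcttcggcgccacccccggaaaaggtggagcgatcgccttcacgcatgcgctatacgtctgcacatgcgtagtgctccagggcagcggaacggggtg
Cox6a1: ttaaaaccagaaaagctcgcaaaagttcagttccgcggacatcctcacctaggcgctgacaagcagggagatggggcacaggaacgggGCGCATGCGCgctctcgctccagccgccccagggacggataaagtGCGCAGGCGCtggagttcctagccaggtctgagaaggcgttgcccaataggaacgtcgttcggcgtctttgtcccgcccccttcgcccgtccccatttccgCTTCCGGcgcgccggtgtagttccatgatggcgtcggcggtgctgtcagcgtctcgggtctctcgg

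Of the 84 genes 70 had such a window. The NRF1 motif was found in 16 of them (22.9%), against 11.8% of the 7049 tested genes with a window and 5.19% of all 27025 windowed genes. For the GABP motif the count was 18 (25.7%), against 20.1% of tested genes and 9.93% of all. The YY1 motif AAGATGGCG occurred in 6 (8.57%), against 3.66% and 1.64%, and the ERR motif TCAAGGTCA in 2 (2.86%), Atp5g3 and Sdhd, against 0.326% and 0.466%. No match overlapped one of another motif (0 cases). Complex V had 6 of 15 windows with the NRF1 motif and 6 of 15 with that of GABP, and complex I had 6 and 5 of 36. These matches are letters in a window and say nothing of binding. Over the whole interval the median log2 difference was -0.42 for the 16 tested genes with an NRF1 match and -0.41 for those without, -0.50 and -0.40 for the GABP motif, and -0.47 and -0.40 for the YY1 motif.

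Over the whole interval, respiratory chain signals were mostly lower at 26-30 than at 16-20 somites. The median log2 difference of the 81 tested genes was -0.41, with 72 negative and 9 positive, while the median of all tested genes was 0.01 and 49.2% of them were negative. Complex V had the most negative median, -0.60 with 15 of 17 genes negative, and was followed by complex III at -0.52 (7 of 8), complex I at -0.40 (36 of 39), complex IV at -0.29 (11 of 13) and complex II at -0.19 (3 of 4). By limma, none of the 81 genes (0) had an adjusted p under 0.05 after adjustment over all tested genes, of which 0% did, and the smallest adjusted p was 0.346. At an unadjusted p under 0.05, 11 chain genes (13.6%) were lower, against 4.85% of tested genes, and 0 were higher, against 6.29%. Those 11 were 6 accessory subunits of complex I, 3 subunits of complex III and 2 of complex V, with none from complexes II and IV.

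Arrays of the 2 stages did not overlap for 26 chain genes. All 26-30 arrays lay below all 16-20 arrays for 25 of them (30.9%), against 10.2% of tested genes, and above them for 1, Cox7c, against 11.2%. The 25 divided into 12 of complex I, 3 of complex III, 3 of complex IV and 7 of complex V, and complex II gave 0. Without the narrow-range arrays 1 pool remains at 26-30 somites. The median was then -0.13, with 56 of 81 genes negative, against -0.0047 for all tested genes, with 4384 of 8675 negative. Without 16-20 somites replicate 2, the pool with the high cardiac and liver sums, the median of the 81 genes was -0.39. With array weights estimated by limma, 11 chain genes (13.6%) passed at an adjusted p under 0.05, all lower at 26-30 somites, against 8.43% of tested genes. At 26-30 somites these weights were 3.38 and 1.34 for the narrow-range replicates 1 and 2 and 0.67 for replicate 3, so that fit leaned on narrow-range arrays.

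**Figure D1:**
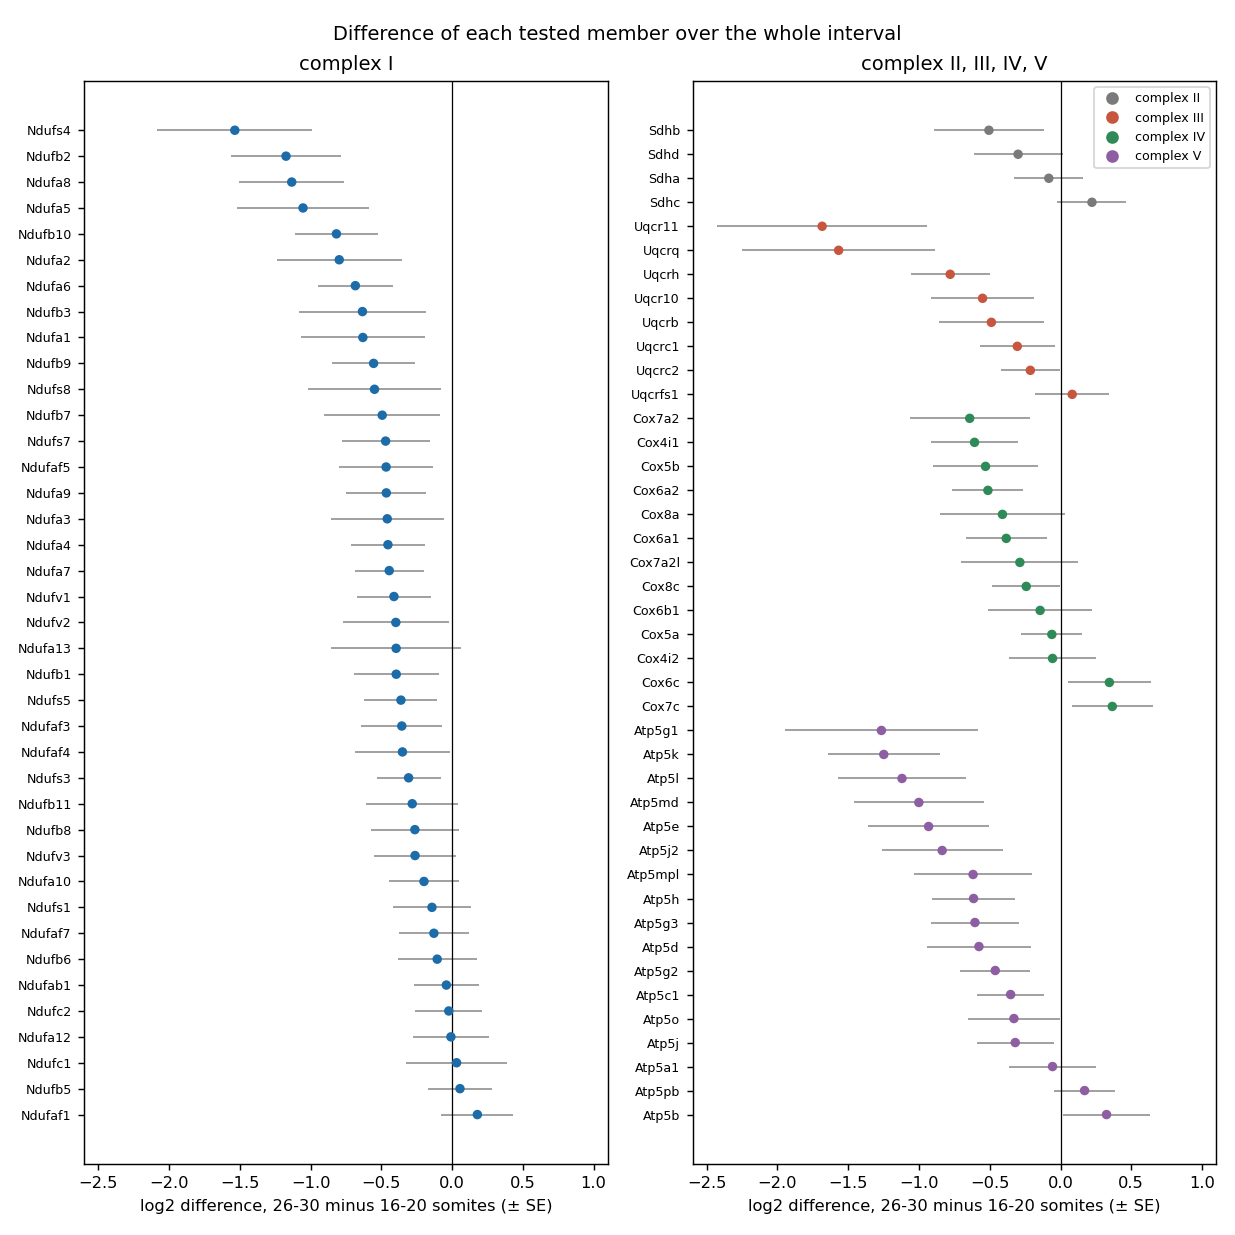
Log2 difference of each of the 81 tested genes, 26-30 minus 16-20 somites, with its limma SE as a bar, complex I in the left panel and complexes II to V in the right. Points of 72 genes lie left of 0 and those of 9 genes right of it, and the most negative is Uqcr11 at -1.68.

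The array-by-array values place the low signals. Relative to each gene's mean over the 9 arrays, the median chain gene read 0.25, 0.35 and 0.23 at 16-20 somites, -0.68, 0.24 and 0.13 at 21-25 somites, and -0.17, -0.34 and 0.12 at 26-30 somites, on the log2 scale. The 3 negative values are those of the narrow-range arrays, and the other 6 arrays were all above 0, with those at 16-20 somites between 0.23 and 0.35. On these 3 arrays 41 chain genes (50.6%) read lower than on all of the other 6, against 7.04% of tested genes. Only Atp5b read higher on all 3 than on the others, against 9.65% of tested genes. The lowest of the 9 values fell on 21-25 somites replicate 1 for 51 chain genes (against 13.2% of tested genes) and on 26-30 somites replicate 2 for 12 (against 6.56%). The other tested genes in the brightest quartile of signal deviated by -0.07 to 0.07 in the median on every array.

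**Figure D2:**
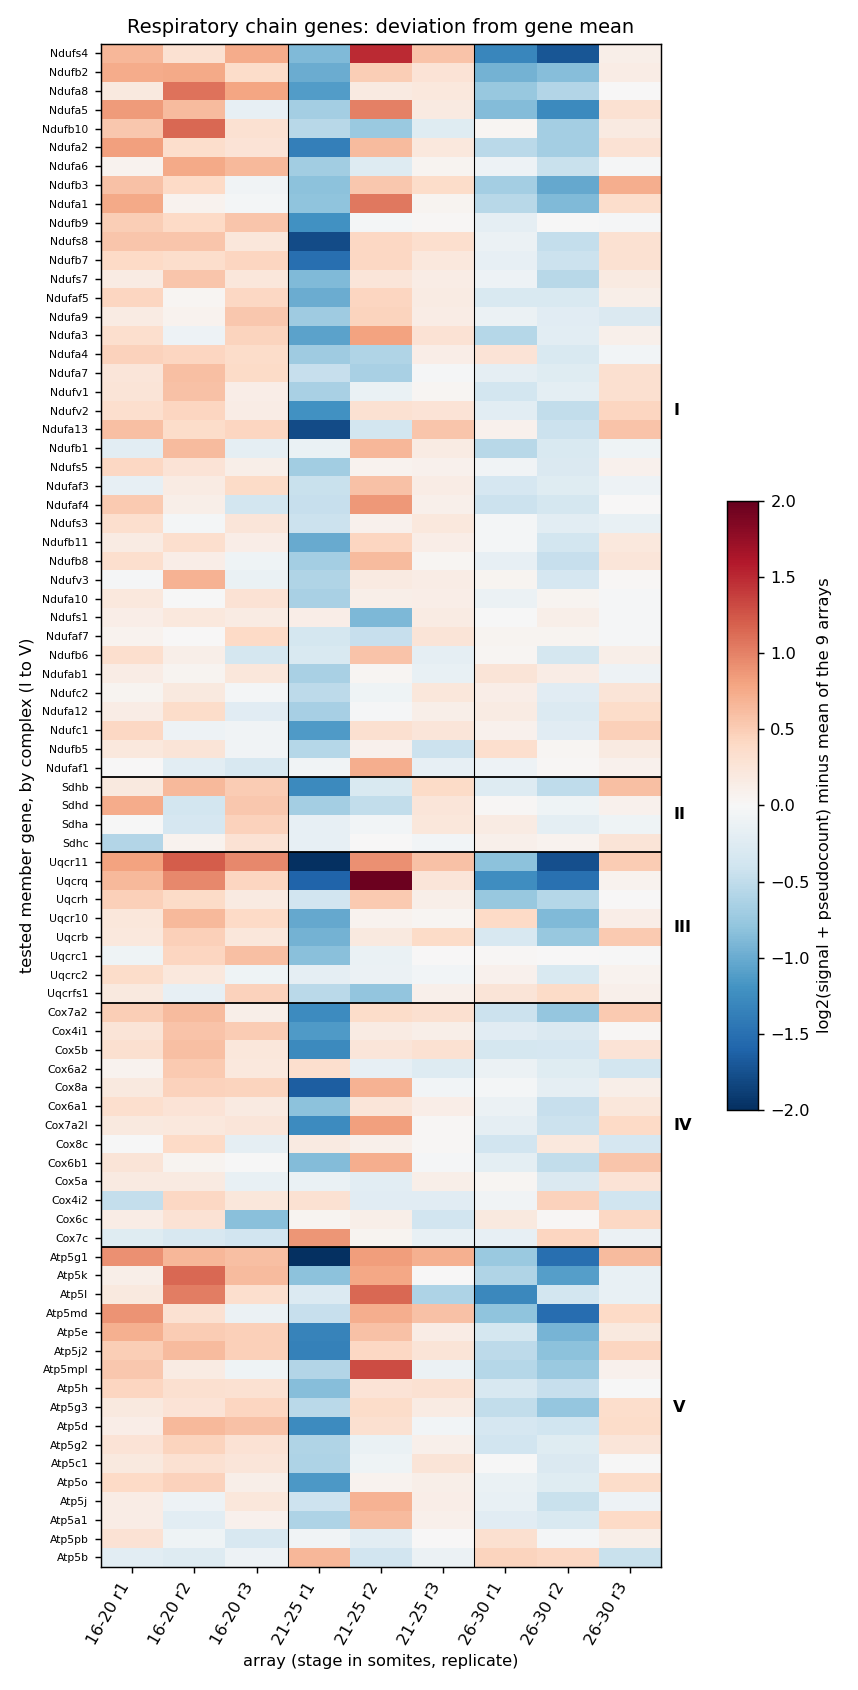
Deviation of log2(signal + pseudocount) from the gene's mean over 9 arrays for each of 81 tested genes (rows, by complex) on each array (columns), with blue below and red above the mean. The columns 21-25 r1, 26-30 r1 and 26-30 r2 are mostly blue, and the 16-20 columns mostly red.

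The single wide-range pool at 26-30 somites, replicate 3, lay between the extremes. Compared with the range of the 3 arrays at 16-20 somites, 31 chain genes were below it on this array (38.3%, against 25.3% of tested genes), 12 above it (14.8%, against 24.0%) and 38 within it. The narrow-range arrays of the same stage had 59 (72.8%, against 30.5% of tested genes) and 64 (79.0%, against 25.0%) chain genes below that range. By complex, replicate 3 had 8 of 17 genes of complex V, 15 of 39 of complex I, 4 of 8 of complex III, 4 of 13 of complex IV and 0 of 4 of complex II below it.

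**Figure D3:**
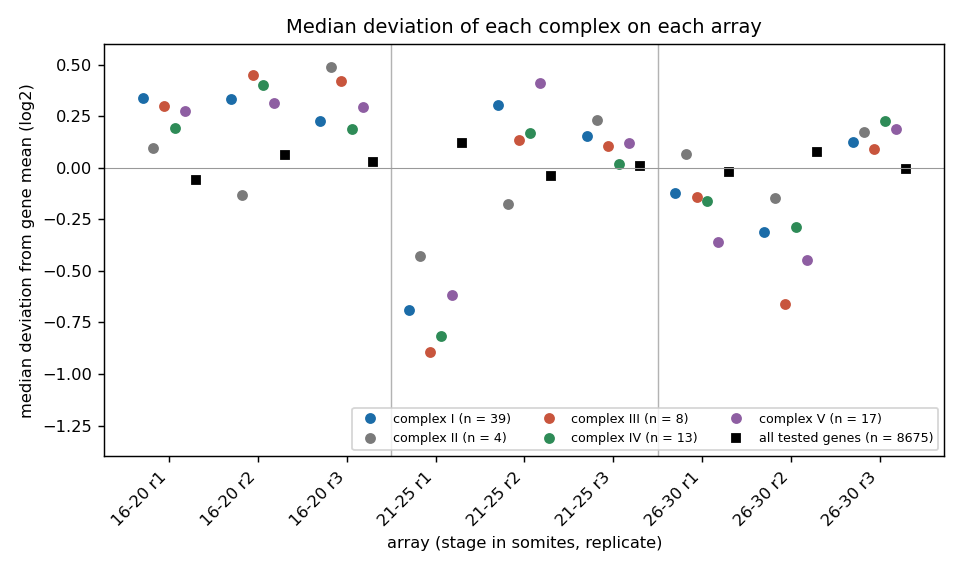
Median deviation from the gene mean (log2) on each of the 9 arrays for complexes I to V (circles) and all tested genes (squares), with n genes per group in the legend. Complexes I, III, IV and V lie below 0 on 21-25 r1, 26-30 r1 and 26-30 r2 and above 0 on the other arrays, whereas complex II lies below 0 on 16-20 r2, 21-25 r1, 21-25 r2 and 26-30 r2.

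Complex I, the NADH dehydrogenase, gave the largest set. Its 28 accessory subunits had a median of -0.45 with 26 negative. Its 6 core subunits, among them those that carry the flavin and iron-sulfur clusters, had a median of -0.40 with 6 negative. Its 5 assembly factors had a median of -0.35 with 4 negative. With the narrow-range arrays left out, the median of the 39 genes was -0.14. The accessory subunits furthest apart were Ndufs4, Ndufb2, Ndufa8 and Ndufa5.

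Ndufs4 is an accessory subunit needed for a stable, active complex, and its loss causes mitochondrial disease in humans and mice. Ndufs4 read 1146, 892 and 1221 at 16-20 somites, 375, 2066 and 1075 at 21-25 somites, and 274, 202 and 779 at 26-30 somites. Every pool at 26-30 somites read below every pool at 16-20 somites, and 21-25 somites replicate 2 was above both. The log2 difference was -1.54 ± 0.55, with an adjusted p of 0.363 in limma. Other probe sets of Ndufs4 above the filter differed by -0.33, at a mean log2 signal of 9.19 against 9.54 for the chosen one, and by 0.08, at 7.84. Ndufb2 read 1443, 1450.1 and 1100 at 16-20 somites, 415, 1199.9 and 1036 at 21-25 somites, and 428, 459 and 939 at 26-30 somites. Here too the stages did not overlap (-1.17 ± 0.39), and the pools at 26-30 somites with the lower values were the narrow-range ones. Ndufa8 read 1599, 2993 and 2439 at 16-20 somites, 632, 1579 and 1619.8 at 21-25 somites, and 817, 922 and 1407 at 26-30 somites. Ndufa8, a subunit on the intermembrane side whose promoter is printed above, differed by -1.13 ± 0.37 with an adjusted p of 0.348, without overlap between the outer stages.

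Ndufa5 read 3189, 2712 and 1559.8 at 16-20 somites, 1085, 3543 and 1986 at 21-25 somites, and 944, 707 and 2172 at 26-30 somites. Ndufa5 lies in the matrix arm, and its outer stages overlapped, with 26-30 somites replicate 3 above 16-20 somites replicate 3 (-1.05 ± 0.47). Ndufb10 read 512, 793 and 434 at 16-20 somites, 226, 196 and 288 at 21-25 somites, and 354, 206 and 395 at 26-30 somites. The pools at 21-25 somites were the low ones for this intermembrane-side subunit, and those at 26-30 somites, -0.82 ± 0.29 from 16-20 somites, were also below the earliest stage. Ndufa6 read 927, 1498 and 1402 at 16-20 somites, 531, 736 and 910.2 at 21-25 somites, and 819, 642 and 861 at 26-30 somites. Ndufa6, of the matrix arm, had its low pools at both later stages (-0.68 ± 0.26).

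Against the sign of the complex stood Ndufaf1, an assembly factor of the membrane arm. Ndufaf1 read 606, 516 and 479 at 16-20 somites, 574, 1009.5 and 536 at 21-25 somites, and 559.7, 614 and 643 at 26-30 somites. Its stages overlapped and the difference was 0.18 ± 0.25. Ndufb5, a membrane-arm subunit, differed by 0.06 ± 0.23, and another probe set had the opposite sign. Ndufaf3, a dim assembly factor with signals of 79.7 to 189.3, differed by -0.36 ± 0.29. Ndufa4, first described in complex I and since assigned to complex IV, differed by -0.45 ± 0.26, with signals of 528 to 806 at 26-30 somites, against 863 to 923 at 16-20 somites.

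Complex II, succinate dehydrogenase, stood nearest to all tested genes. Sdhb read 4787, 6572 and 5944 at 16-20 somites, 1711, 3384 and 5426 at 21-25 somites, and 3494, 2941 and 6312 at 26-30 somites. Sdhb, the iron-sulfur subunit, had low values on 21-25 somites replicate 2 and on the narrow-range arrays, and 26-30 somites replicate 3 lay within the range of 16-20 somites (-0.51 ± 0.39). Sdha read 3479, 2773 and 4848 at 16-20 somites, 3104, 3364 and 4078 at 21-25 somites, and 3932, 3037 and 3294 at 26-30 somites. Sdha, the flavoprotein that oxidises succinate, overlapped at all stages (-0.08 ± 0.24). Sdhd read 2018, 928 and 1764 at 16-20 somites, 739, 842 and 1422 at 21-25 somites, and 1219, 1126 and 1279 at 26-30 somites. Sdhd, a membrane anchor, had the widest spread at 16-20 somites (-0.30 ± 0.31). Sdhc read 303, 493 and 574 at 16-20 somites, 415, 471 and 449 at 21-25 somites, and 506, 492 and 564 at 26-30 somites. Sdhc, the other anchor, gave a positive difference of 0.22 ± 0.24, with its lowest value on 16-20 somites replicate 1 and its narrow-range pools within the range of the others. Without the narrow-range arrays the median of complex II was 0.01.

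Complex III, which oxidises ubiquinol and reduces cytochrome c, held the 2 most negative genes of the chain. Uqcr11 read 1352, 1798 and 1498 at 16-20 somites, 120.5, 1459 and 1158 at 21-25 somites, and 417, 206 and 1094 at 26-30 somites. Uqcr11, a small accessory subunit, read lowest on the narrow-range arrays by a wide margin, and its outer stages did not overlap (-1.68 ± 0.74, adjusted p 0.431 in limma). Uqcrq read 1747, 2154 and 1492 at 16-20 somites, 346, 4366 and 1310.2 at 21-25 somites, and 449, 375 and 1156 at 26-30 somites. Uqcrq, a small ubiquinone-binding subunit, was low on the same arrays, and 21-25 somites replicate 2 read above every other pool (-1.57 ± 0.68). Its 3 other probe sets above the filter differed by -0.03, -0.40 and -0.04, and the mean of all its probe sets by -0.51. Without the narrow-range arrays Uqcrq differed by -0.61. Uqcrh read 882, 824 and 719 at 16-20 somites, 477, 918 and 683 at 21-25 somites, and 363, 416 and 635 at 26-30 somites. Uqcrh, the hinge protein that helps cytochrome c dock, had no overlap between the outer stages (-0.78 ± 0.28, adjusted p 0.363).

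The catalytic subunit among these genes behaved otherwise. Uqcrfs1 read 2403, 1871 and 2892 at 16-20 somites, 1435, 1207 and 2246 at 21-25 somites, and 2505, 2729 and 2263 at 26-30 somites. Uqcrfs1, the Rieske iron-sulfur protein, differed by 0.08 ± 0.26 over the whole interval, with its 2 lowest pools at 21-25 somites. Uqcr10, a small subunit, differed by -0.55 ± 0.36, with 432 on 26-30 somites replicate 1 and 162 on replicate 2. Uqcrb, another small subunit, differed by -0.49 ± 0.37, and read 19486, 14329 and 35004 at 26-30 somites, against 28002, 33797 and 28559 at 16-20 somites. Its replicate 3 at 26-30 somites was thus above all earlier pools. Without the narrow-range arrays the median of the 8 genes was -0.31, with 7 negative, and that of all tested genes was 0.00.

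**Figure D4:**
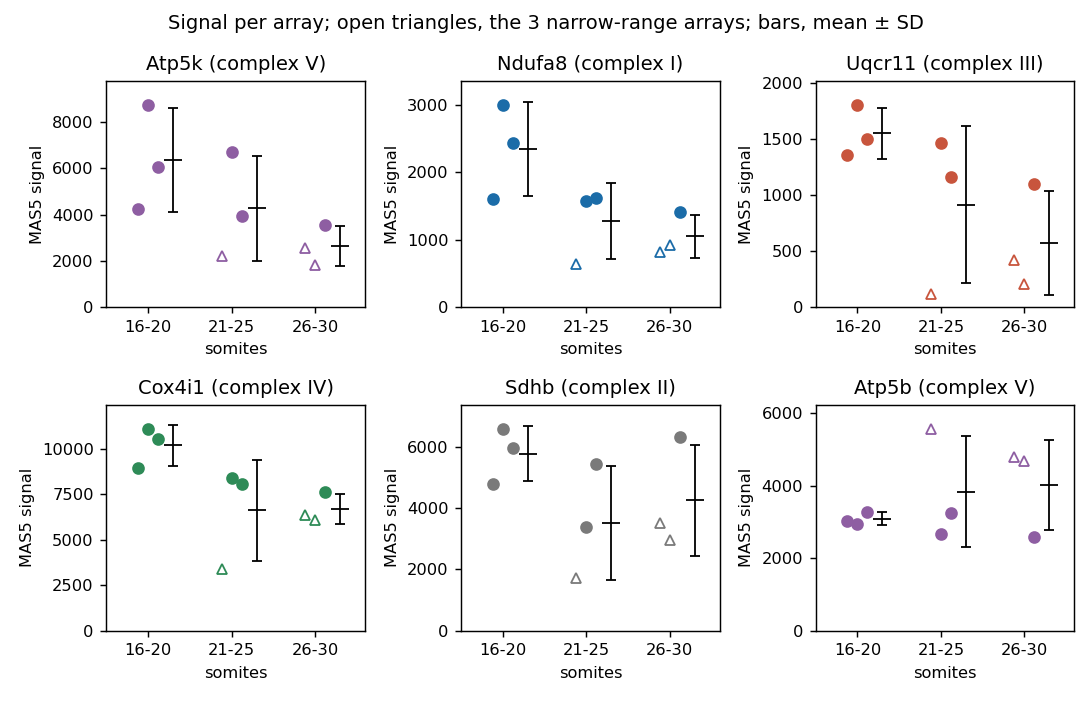
MAS5 signal (linear scale from 0) per array at each stage for 6 genes, with open triangles for the narrow-range arrays and the mean ± SD of 3 pools beside the points. For Atp5k, Ndufa8, Uqcr11 and Cox4i1 all 26-30 points lie below all 16-20 points, for Sdhb the stages overlap, and for Atp5b the 3 triangles are the highest points.

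Complex IV, cytochrome c oxidase, comes in widely expressed and tissue-restricted forms of several subunits. The 9 widely expressed subunits had a median of -0.38 with 7 negative, and the 3 tested tissue-restricted forms -0.24 with 3 negative. Leaving the narrow-range arrays out gave a median of -0.04 for the 13 tested genes. Cox4i1 read 8936, 11099.9 and 10572 at 16-20 somites, 3403, 8389 and 8065 at 21-25 somites, and 6381, 6077 and 7611 at 26-30 somites. Cox4i1, the common form of a subunit that binds ATP, had no overlap between the outer stages (-0.61 ± 0.31), with its lowest value on 21-25 somites replicate 1. Cox4i2 read 117, 239 and 208 at 16-20 somites, 219.7, 145 and 144 at 21-25 somites, and 164, 248 and 126 at 26-30 somites. Cox4i2, the form known from lung and from low-oxygen settings, overlapped at all stages (-0.06 ± 0.31).

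The subunit pairs of complex IV could be followed side by side, each probe set against itself. Cox6a1 read 18476, 17803 and 16726 at 16-20 somites, 8327, 17435 and 16054 at 21-25 somites, and 13502, 10652 and 17209 at 26-30 somites. Cox6a1, the widely expressed form whose promoter is printed above, was low on the narrow-range arrays and differed by -0.38 ± 0.29, and its heart and muscle counterpart Cox6a2 by -0.51 ± 0.25. Cox6a2 read 117, 170.1 and 132 at 16-20 somites, 145, 95.1 and 87.1 at 21-25 somites, and 99.7, 88.8 and 79.5 at 26-30 somites. All 26-30 pools of Cox6a2 lay below the 16-20 pools, and its highest value was that of 16-20 somites replicate 2, the pool with the largest cardiac sum. Cox6b1 differed by -0.14 ± 0.37, while Cox6b2, known from testis, read at most 34.8 and was not tested. Cox7a2 differed by -0.64 ± 0.42 and Cox7a2l, which helps join complexes III and IV, by -0.29 ± 0.41. Cox7a1, the heart and muscle form, was not tested, and its highest signal, 107.6, was again on 16-20 somites replicate 2, against 3.80 to 49.7 elsewhere. Cox8a differed by -0.41 ± 0.44 and Cox8c, known from testis, by -0.24 ± 0.24, whereas Cox8b, a heart and muscle form, read 3.40 to 12.1 and was not tested. Another probe set of Cox8a that passed the filter differed by 0.21.

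Cox7c read 266, 250.2 and 238 at 16-20 somites, 612, 332 and 284 at 21-25 somites, and 282, 437 and 292 at 26-30 somites. Cox7c, a small widely expressed subunit, was the only chain gene whose 26-30 pools all lay above its 16-20 pools (0.37 ± 0.29, adjusted p 0.633 in limma), and its highest value was on 21-25 somites replicate 1. The probe set of Cox7c belongs to a class that Affymetrix marks as shared between similar transcripts. Its other probe set was below the filter on low signal and differed by 0.04. Cox7a2 read 19668, 21649.8 and 15132 at 16-20 somites, 5842, 17923 and 17416 at 21-25 somites, and 10397, 8127 and 20026 at 26-30 somites. The 2 narrow-range pools at 26-30 somites were low for Cox7a2, and replicate 3 lay within the range of 16-20 somites. Cox5b read 13127, 16011 and 12326 at 16-20 somites, 4319, 12434 and 12932 at 21-25 somites, and 8177, 8277 and 12683 at 26-30 somites. Cox5b, a zinc-binding subunit, did the same (-0.53 ± 0.37).

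Complex V, the ATP synthase, had a more negative median in the part that spans or joins the membrane than in its F1 part. The 12 genes of the membrane part and peripheral stalk had a median of -0.62 with 11 negative, and the 5 genes of the F1 part, which makes ATP, -0.35 with 4 negative. Within the F1 part Atp5a1 and Atp5b differed by -0.06 and 0.33, and Atp5c1, Atp5d and Atp5e by -0.35, -0.58 and -0.93. Of these Atp5a1, Atp5d and Atp5e are named after their values were seen. The 17 genes had a median of -0.11 when the narrow-range arrays were left out. Atp5k read 4239, 8722 and 6069 at 16-20 somites, 2197, 6684 and 3941 at 21-25 somites, and 2571, 1808 and 3532 at 26-30 somites. Atp5k, subunit e, which helps synthase dimers form, had the smallest p of the chain (-1.25 ± 0.40, adjusted p 0.346 in limma), and its outer stages did not overlap. Its probe set belongs to a class that Affymetrix marks as able to bind similar sequences. Atp5l read 91.1, 181 and 102 at 16-20 somites, 58.4, 199.7 and 40.0 at 21-25 somites, and 15.4, 53.1 and 65.7 at 26-30 somites. Atp5l, subunit g, lay just above the filter on low signal, and its outer stages did not overlap either (-1.12 ± 0.45). Atp5md read 1213, 799.6 and 587 at 16-20 somites, 457, 1082 and 972 at 21-25 somites, and 355, 207 and 855 at 26-30 somites. Atp5md, a small subunit of the dimer interface, overlapped through replicate 3 of 26-30 somites (-1.001 ± 0.46).

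The proton-carrying c ring is made from 3 genes for the same mature protein. Atp5g1 read 649.5, 542 and 516 at 16-20 somites, 58.5, 612 and 564 at 21-25 somites, and 188, 99.9 and 529 at 26-30 somites. Atp5g1 was low on the narrow-range arrays and level with the other pools on 26-30 somites replicate 3 (-1.27 ± 0.68). Atp5g2 read 752, 847 and 763 at 16-20 somites, 395, 561 and 661 at 21-25 somites, and 469, 520.1 and 734 at 26-30 somites. Atp5g2 had no overlap between the outer stages (-0.46 ± 0.25), although another of its probe sets had the opposite sign. Atp5g3 read 12682, 13414 and 14954 at 16-20 somites, 7608, 14298 and 12407 at 21-25 somites, and 7849, 6474 and 14190.4 at 26-30 somites. Atp5g3 was also low on the narrow-range arrays and within the 16-20 somite range on 26-30 somites replicate 3 (-0.60 ± 0.31).

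The F1 part held an exception. Atp5b read 3030.3, 2944 and 3279.9 at 16-20 somites, 5561, 2676 and 3239 at 21-25 somites, and 4785, 4672 and 2584 at 26-30 somites. Atp5b, the catalytic beta subunit, read highest on the narrow-range arrays, the reverse of most of the chain, and its difference was 0.33 ± 0.31. Atp5c1 read 16281, 17608 and 16905 at 16-20 somites, 9286, 13452 and 17069 at 21-25 somites, and 14133, 11624 and 14154 at 26-30 somites. Atp5c1, the gamma subunit that turns inside the head, lay below all 16-20 somite pools at 26-30 somites (-0.35 ± 0.24), and another probe set had the opposite sign. Atp5b differed by -0.25 when the narrow-range arrays were left out.

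How alike the genes were across arrays was described by Pearson's r of each gene with the median deviation of the other chain genes over the 9 arrays, which share their amplification and scaling. The median r was 0.80, 40 genes were over 0.8, and 7 were below 0. Uqcr11 and Atp5j2 had the highest r, both 0.99. Those below 0 were Atp5b (-0.91), Cox7c (-0.90), Cox4i2 (-0.42), Ndufs1 (-0.19), Atp5pb (-0.11), Cox6c (-0.10) and Cox8c (-0.06), of which Ndufs1, Atp5pb and Cox6c are named after their values were seen. Cox6c differed by 0.35 over the whole interval, but another of its probe sets, nearly as bright, differed by -0.98. The median r was 0.87 in complex V, 0.83 in complex IV, 0.82 in complex III, 0.79 in complex I and 0.34 in complex II. Within complex II, Sdhb had 0.87, Sdhd 0.46, Sdha 0.22 and Sdhc 0.05. Over the whole interval the chain genes had a negative median in every quartile of signal, at -0.45 (4 genes), -0.36 (7), -0.46 (16) and -0.37 (54) from the dimmest to the brightest, against -0.05, 0.02, 0.06 and 0.03 for the other genes of those quartiles.

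**Figure D5:**
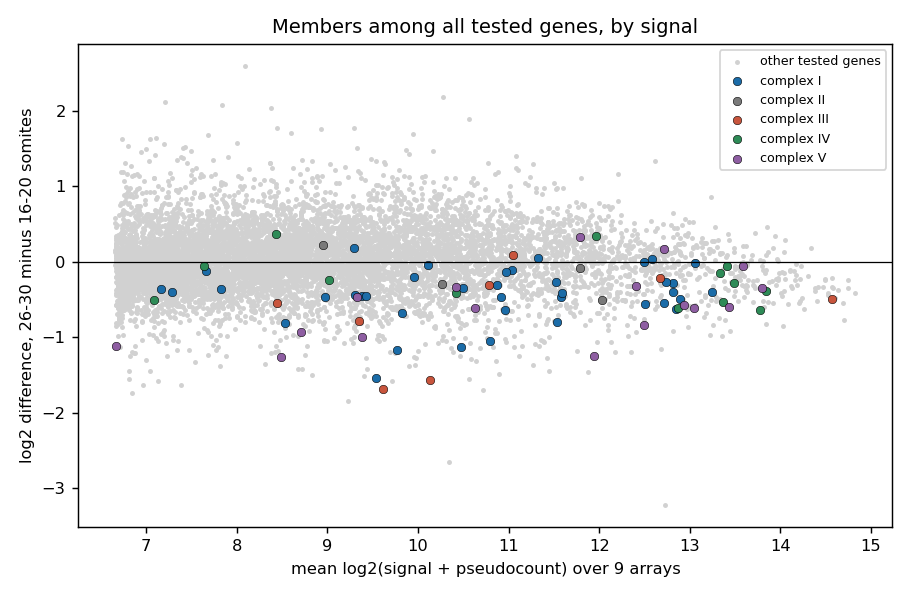
Log2 difference, 26-30 minus 16-20 somites, against mean log2(signal + pseudocount) over 9 arrays for all 8675 tested genes (grey) and the 81 chain genes (coloured by complex). Chain genes lie mostly below 0 at every level, with medians of -0.45 in the dimmest and -0.37 in the brightest quartile.

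The first step, 21-25 against 16-20 somites, shares its 16-20 pools with the whole interval, and its median was close to that of the whole interval. The median of the 81 genes was -0.39, with 71 negative and 10 positive, against 0.00 for all tested genes. By limma 0 genes passed at an adjusted p under 0.05, as did 0% of tested genes, and the smallest adjusted p was 0.316. At an unadjusted p under 0.05, 13 were lower (16.0%, against 5.38% of tested genes) and 0 higher (against 5.68%). All 21-25 pools lay below all 16-20 pools for 13 genes (16.0%, against 7.30%) and above them for 1, Cox7c (against 6.94%). Complex III had a median of -0.52 and all 8 genes negative, complex V -0.43, complex I -0.36, complex II -0.33 and complex IV -0.31.

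The 5 genes with the smallest p in this step were accessory subunits of complex I by symbol. Ndufb10 differed by -1.18 ± 0.29 (the smallest adjusted p of the step), and its pools at 21-25 somites, 196 to 288, did not overlap those at 16-20 somites, 434 to 793. Ndufb9, of the membrane arm, differed by -0.89 ± 0.30, Ndufa4 by -0.82 ± 0.26, Ndufa6 by -0.80 ± 0.26 and Ndufa7, of the matrix arm, by -0.79 ± 0.24. Ndufb9 read 8150.2, 7677 and 8572 at 16-20 somites, 2485, 5654 and 5898 at 21-25 somites, and 5111, 5747 and 5734 at 26-30 somites. For this gene the outlying pool was 21-25 somites replicate 1, and the other pools of both later stages lay between 5111 and 5898. Ndufa7 read 724, 931 and 799 at 16-20 somites, 433, 379 and 592 at 21-25 somites, and 531, 507 and 765 at 26-30 somites. Of the later pools of Ndufa7, 26-30 somites replicate 3 alone reached the range of the earliest stage. Without 21-25 somites replicate 1 the median of the 81 genes was -0.07, with 55 negative, against -0.04 for all tested genes.

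The second step, 26-30 against 21-25 somites, shares its pools with both other comparisons and showed no common direction. The median was 0.03, with 37 genes negative and 44 positive, against 0.01 for all tested genes. By limma 0 genes passed at an adjusted p under 0.05 (0% of tested genes), and all adjusted p-values were 0.998 or above. At an unadjusted p under 0.05 there was 1 lower gene, Ndufs4 at -1.36 ± 0.55 (against 2.05% of tested genes), and 1 higher gene, Uqcrfs1 at 0.65 ± 0.26 (against 2.02%). No gene had all 26-30 pools below all 21-25 pools (0, against 4.84%), and 2 had them above, Uqcrfs1 and Sdhc (against 4.51%). Ndufb5 differed by 0.49 ± 0.23, Atp5md by -0.92 ± 0.46 and Uqcrh by -0.52 ± 0.28. With array weights 1 gene, Ndufs4, passed at an adjusted p of 0.0486, against 0.334% of tested genes, and the median was -0.20. Without 21-25 somites replicate 1 the median was -0.30. The values of Ndufs4 come from 1 of its probe sets, and the others above the filter differed by -0.33 and 0.08 over the whole interval.

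The membrane part of complex V was the group with the most negative second step, at -0.33 with 9 of 12 genes negative, beside -0.17 for complex V as a whole. The core subunits of complex I were at 0.14 with 5 of 6 positive. The difference between the steps, second minus first, was tested in the same fit: its median over the 81 genes was 0.42, 0 passed (smallest adjusted p 0.751; 0% of tested genes), and 6 had an unadjusted p under 0.05 (7.41%, against 6.32%). The test for any difference between the 3 stages gave 0 genes at an adjusted p under 0.05 (0% of tested genes), a smallest adjusted p of 0.432, and 10 genes at an unadjusted p under 0.05 (12.3%, against 9.75%).

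Genes around the chain were read the same way. Of the electron carrier that links complexes III and IV, Cycs read 5642, 4922 and 8955 at 26-30 somites, against 5926, 9871 and 7210 at 16-20 somites, a difference of -0.25 ± 0.30, and Cyc1, the cytochrome c1 of complex III, gave -0.33 ± 0.20. Assembly factors outside the symbol rule had a median of -0.22 over 25 tested genes with 18 negative. At an unadjusted p under 0.05 in limma, 3 were lower (Uqcc2, Cox19 and Cox20), against 4.85% of tested genes. Only 1 was higher (Cox15, which makes heme a), against 6.29% of tested genes. Cox20 and Cox15 are named after their values were seen. Cox15 differed by 2.07 ± 0.74 (adjusted p 0.363 in limma). Uqcc2, which helps make cytochrome b, read 543, 491 and 965 at 26-30 somites, against 1223, 1977 and 1393 at 16-20 somites (-1.20 ± 0.39), and Cox19, a copper-handling assembly factor, differed by -0.68 ± 0.23. Ubiquinone synthesis was at -0.02 over 7 genes, with Coq7 at -0.41 ± 0.21 and Coq8b at 0.57 ± 0.31. The carriers of adenine nucleotides and phosphate, with the inhibitor of the synthase, were at -0.19 over 7 genes, with Slc25a4 at -0.45 ± 0.22 and Vdac2 at -0.45 ± 0.25.

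Protein import into mitochondria was at a median of -0.28 (25 tested genes, 19 negative). At an unadjusted p under 0.05, 5 genes were lower (20.0%, against 4.85% of tested genes). They were Hspe1 and Timm13 and, named after their values were seen, Timm10, Timm10b and Timm17a. Hspe1, the cochaperonin that folds imported proteins, read 2405, 1524 and 3092 at 26-30 somites, against 6110, 5733 and 6883 at 16-20 somites, a difference of -1.46 ± 0.30 with an adjusted p of 0.254 in limma. Its pools at 21-25 somites, 2543, 5255 and 3815, lay below those at 16-20 somites as well, and the wide-range pool at 26-30 somites, like the other 2, lay below every 16-20 pool. Timm13, an intermembrane chaperone, differed by -1.55 ± 0.44. Antioxidant defence was at -0.32 over 10 genes, with Gpx4 at -0.99 ± 0.50 and Txn2, the mitochondrial thioredoxin, at 0.71 ± 0.21.

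Pathways that feed the chain stood nearer to all tested genes. Pyruvate dehydrogenase and the citric acid cycle stood at a median of -0.09 (17 genes, 10 negative), with Idh3b at -0.45 ± 0.28 and Suclg2 at 0.58 ± 0.41. Of these 0 had an unadjusted p under 0.05, against 4.85% of tested genes lower and 6.29% higher. Glycolysis was at -0.08 over 18 genes with 11 negative, and 2 were lower at an unadjusted p under 0.05 (11.1%, against 4.85% of tested genes). These were the glucose transporter Slc2a3, 7441, 7663 and 9628 at 26-30 somites, against 12372, 18638 and 11930 at 16-20 somites (-0.77 ± 0.24), and Aldoa (-0.52 ± 0.21). Regulators of mitochondrial biogenesis had a median of 0.12 over 17 genes with 9 positive. At an unadjusted p under 0.05 there were 2 higher (against 6.29% of tested genes) and 1 lower (5.88%, against 4.85%). Among them Tfb2m, a factor for mitochondrial transcription, read 460, 460 and 281 at 26-30 somites, against 184, 168 and 253 at 16-20 somites (0.89 ± 0.28). Gabpa, the DNA-binding subunit of GABP, differed by 0.82 ± 0.33. Both genes read highest on the narrow-range arrays. There Tfb2m read 410.5 to 460, against at most 281 elsewhere, and Gabpa 1375 to 1942, against at most 1134. The lower one, named after its values were seen, was Polg2, the accessory subunit of the mitochondrial DNA polymerase (-0.57 ± 0.25). Each of these genes missed an adjusted p of 0.05 in limma.

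Ribosomal protein genes, compared because their array pattern looked alike, had medians of -0.55 (45 cytosolic, 42 negative) and -0.46 (74 mitochondrial, 66 negative) over the whole interval. On the narrow-range arrays their median deviations were -0.66, -0.29 and -0.55 for cytosolic and -0.54, -0.18 and -0.23 for mitochondrial ones, beside -0.68, -0.17 and -0.34 for the chain. Glycolysis deviated there by 0.00, -0.01 and -0.02. No difference between these lists was tested.

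Probe choice limits single genes. A second probe set passed the filter for 43 of the 81 tested genes, and for 12 of them its sign over the whole interval was the opposite one. Probe sets that Affymetrix marks as shared between similar transcripts stood for 21 of the 84 genes, 8 of the class _x_at and 13 of _s_at.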

How the data were processed

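RNA of 9 pools was hybridised to Affymetrix arrays, and the authors deposited linear intensity values made with MAS5 (per the submitters' processing notes). No source used here gives the MAS5 version, the scaling target or calls of detection, so no probe set was called absent. Trimmed by 2% at each end, array means were 500.2 to 500.3. Array medians lay within 0.30 log2, and values were used as deposited.

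Of 22690 probe sets, 64 were controls, and 20380 carried a single symbol, 691 several and 1555 none. Only those with 1 symbol were used, and 8 probe sets that chain genes share with another gene were left out. The probe set with the highest mean log2 signal stood for a gene. Values were taken to log2 after adding 26.1, the 20th percentile of all values, and genes under the 30th percentile of gene means (6.66 on that scale) were left out. Stage means of all 9 arrays were fitted with limma 3.58.1 in R 4.3.3 (lmFit, eBayes with a trend), two-sided, with Benjamini-Hochberg adjustment over 8675 genes at 0.05. The number of arrays limits the precision.

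Chain genes and lists were chosen with earlier results of these data known. Genes named with values were, per complex, the 4 furthest apart and the 1 furthest against the median, all of complex II, the 5 with the smallest p per comparison, the 3 highest and 3 lowest in signal, and the isoform families, with up to 2 genes per other list. All 84 symbols matched RefSeq, whose table changed 0. Same-numbered pools did not deviate together (correlations of -0.28 to 0.26), so the replicate number was not used as a block. Alternatives were another scaling, pseudocount, filter, trend setting, array weights, block, probe set rule or set of stages, and arrays left out.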

Additional observations from a re-analysis of the deposited data

How the results depend on the processing

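Each of 8 medians and 51 single-gene differences was recomputed under up to 21 alternatives. The median over the whole interval stayed negative in all of them, at -0.52 to -0.13, and at -0.52 to -0.30 when single arrays were left out. Leaving out single arrays gave -0.51 to -0.31 for complex I, -0.34 to -0.03 for II, -0.76 to -0.25 for III, -0.45 to -0.24 for IV and -0.82 to -0.44 for V, -0.59 to -0.065 for the first step and -0.30 to 0.19 for the second. Without the narrow-range arrays, where the lone pool at 26-30 somites is assumed to vary like the other stages, the medians were 0.0067 for complex II, -0.11 for complex V, -0.065 for the first step, the value also without 21-25 somites replicate 1, and -0.050 for the second. The second step was also negative with array medians centred (-0.0077), under array weights (-0.20), on averaged probe sets (-0.054), without 21-25 somites replicate 1 (-0.30) and without 26-30 somites replicate 3 (-0.11). Array weights, 0.335 for 21-25 somites replicate 2 to 3.38 for the narrow-range 26-30 somites replicate 1, gave 11 calls over the whole interval and 1 in the second step, against 0 without them. The causes were not tested. Counts of chain genes lower at an unadjusted p under 0.05 were 11, 13 and 1 in the main fit, against 4.85%, 5.38% and 2.05% of tested genes. Leaving out single arrays gave 4 to 26 over the whole interval, 5 to 29 in the first step and 0 to 19 in the second. Array weights gave 36 over the whole interval, where 8.43% of all tested genes passed the adjusted threshold. The unadjusted share of all tested genes was not taken under the alternatives, so these counts cannot be read as particular to the chain. With the replicate number as a block the medians stayed at -0.41, -0.39 and 0.03, with 0 calls in each.

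Of 51 single-gene results 37 kept their sign under the alternatives run, and the other 14 were all differences over the whole interval. Without the narrow-range arrays the difference had the other sign for Atp5b (-0.25), Atp5g3 (0.056), Atp5md (0.042), Cox6b1 (0.45), Cox7a2 (0.11), Cox7a2l (0.18), Sdhb (0.14), Uqcrb (0.22) and Uqcrfs1 (-0.055). On averaged probe sets it did for Atp5g2 (0.12) and Ndufb5 (-0.34). Single arrays left out turned Cox4i2 (-0.32 to 0.14), Cox6b1 (-0.44 to 0.077), Ndufb5 (-0.047 to 0.13), Sdha (-0.27 to 0.13), Sdhc (-0.032 to 0.40) and Uqcrfs1 (-0.081 to 0.23). All of these 14 differences had missed the threshold.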
